A study of Mus musculus with 2 samples.

Results

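The lysosome is an acidic organelle in which proteases, glycosidases and lipid hydrolases break down material that a cell has taken up or no longer needs. Its enzymes are made in the secretory pathway and sent to the organelle. They work in the acid that a proton-pumping ATPase maintains, behind a membrane lined by heavily glycosylated proteins such as LAMP1 and LAMP2. Macrophages are rich in lysosomes, because they clear surfactant, dying cells and matrix fragments from the lung. The transcripts of 37 lysosomal genes were followed here, chosen as a named list of lysosome genes in the count tables: 37 of 24785 genes listed in either table, with all 37 listed in both.

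The cells were live CD45+ leukocytes, sorted from lungs of wild-type C57BL/6N mice. Their RNA was read cell by cell with the microwell-based BD Rhapsody method, which counts transcripts by unique molecular identifiers (UMIs). The BLM library held cells from lungs taken on day 15 after intratracheal bleomycin (BLM), an anticancer drug whose lung injury is followed by fibrosis. The bleomycin protocol used mice aged 10 to 16 weeks. The naive library held cells from untreated lungs, for which the sources used here give no age. Each library pooled 3 mice in equal cell numbers, and the mice were not told apart here. Each group thus had 1 library, and differences between groups could not be tested. Library, pipeline run date and group cannot be told apart, cells are not replicates, and all intervals below are 95% intervals for counting error only.

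After cells with fewer than 200 genes or over 15% mitochondrial UMIs were left out, 4526 BLM cells (22126042 UMIs) and 3925 naive cells (17734002 UMIs) remained. At least 1 UMI of Ptprc, which encodes CD45, was seen in 90.4% of BLM and 93.4% of naive cells, and 20 barcode numbers occurred in both libraries. Cells were put into classes by marker genes that include none of the 37 members, so each class name means cells like that class. This left 18.2% of BLM and 10.3% of naive cells without a class. Of 16 classes, 10 held 50 or more cells in both libraries and were compared.

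In the whole BLM library the 37 genes gave 747413 UMIs, 3.38% of all UMIs, and in the naive library 373865 UMIs, 2.11%. The 5 most abundant members, Psap, Ctss, Cst3, Laptm5 and Ctsb, held 62.7% of these UMIs. Psap, the precursor of the saposins that help enzymes act on sphingolipids, alone held 23.3%. At the other end Atp6v0c, a subunit of the membrane part of the proton pump, had 271 UMIs in both libraries together. Its count is uncertain, because the annotation lists 2 processed pseudogenes of it. A whole-library total depends on which cells were caught, so the comparisons below were made within classes.

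The transcription factor TFEB, itself a member, is known to bind an E-box motif in the promoters of many lysosomal genes, the so-called CLEAR element. The members' promoters were therefore searched for the E-box CACGTG and for the longer core TCACGTGA, which contains it. Both motifs read the same on both strands. RefSeq promoter windows (build GRCm38.p6, 250 bases before to 50 after a transcript start) were found for 32 of 37 members. The E-box was present for 10 of these 32 members (31.2%), against 8.09% of all 27025 genes with such a window. The core was present for 5 of 32 (15.6%), against 1.12%. These are descriptions of letters in a window, not of binding. Windows of the 5 genes with the core and of Lamp1, which had 4 copies of the E-box, are shown so that they can be set beside the levels given later. They are written 5′ to 3′ on the strand of the gene, with E-boxes or cores in capitals.
Ctsd (chr7:142387908-142387937, minus strand, inside an exon annotated in GENCODE M21): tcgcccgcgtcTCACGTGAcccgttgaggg
Ctsa (chr2:164833749-164833772, plus strand, inside an annotated exon): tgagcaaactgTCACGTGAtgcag
Gla (chrX:134601179-134601247, minus strand, upstream of the gene): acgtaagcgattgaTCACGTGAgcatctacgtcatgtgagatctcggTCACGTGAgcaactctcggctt
Mcoln1 (chr8:3500462-3500491, plus strand, inside an annotated exon): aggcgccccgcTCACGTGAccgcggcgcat
Atp6v1a (chr16:44139370-44139405, minus strand, inside the gene and outside its exons): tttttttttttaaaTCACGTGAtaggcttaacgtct
Lamp1 (chr8:13159085-13159160, plus strand, upstream of the gene): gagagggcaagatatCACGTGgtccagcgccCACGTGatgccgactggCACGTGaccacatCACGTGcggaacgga
The other members with an E-box were Ctsl, Lgmn, Glb1 and Gaa. Genes with the core did not all differ in the same way between the libraries. Ctsd and Gla were higher in both BLM macrophage classes, whereas Mcoln1 had 40.1 CPM (UMIs per 1000000 UMIs of the same cells) in BLM and 48.7 CPM in naive alveolar macrophages, with an interval of the log2 ratio from -0.59 to 0.02.

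Summed over the 37 genes, type 1 conventional dendritic cells (cDC1) had the highest level of the 10 classes in both libraries, followed by C1q macrophages. In the BLM library the sum reached 56416 CPM in cDC1, 55169.7 CPM in C1q macrophages (the C1q-producing, interstitial or recruited macrophages) and 42639 CPM in alveolar macrophages. In the naive library the same classes had 45077, 30429.9 and 28339 CPM, and nonclassical monocytes, at 28752 CPM, lay just above alveolar macrophages. The rank of cDC1 rested on 1 gene, the secreted inhibitor Cst3. Without Cst3 the sum in cDC1 was 23068 CPM in BLM and 16965 CPM in naive, under classical monocytes (30146 and 22650.4 CPM) and both macrophage classes (51808 and 25316 CPM in C1q, 41365 and 27025 CPM in alveolar macrophages). Monocytes and type 2 conventional dendritic cells (cDC2) lay between 25751 and 32526 CPM in both libraries. Neutrophils had 9682 CPM in BLM and 9209.5 CPM in naive, and B, T and NK cells lay between 4663 and 7766 CPM.

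Alveolar and C1q macrophages carried more lysosomal transcripts in the BLM library than in the naive one. The sum was 1.5-fold higher in BLM alveolar macrophages (log2 ratio 0.59, interval 0.58 to 0.60, 218 BLM and 669 naive cells). It was 1.81-fold higher in BLM C1q macrophages (log2 ratio 0.86, interval 0.84 to 0.88, 426 and 84 cells). The median BLM alveolar macrophage had 4.17% of its UMIs in these genes against 2.76% in naive, and 81.2% of the 218 BLM cells lay above the 90th percentile of the naive cells. For C1q macrophages the medians were 4.82% and 2.93%, and 69.2% of BLM cells lay above the naive 90th percentile. The distributions of single cells thus overlapped only in part in these classes. BLM cells were deeper (median 14774 against 9924 UMIs in alveolar macrophages, 10078 against 5383 in C1q macrophages), and dissociation stress genes stood at 1061 against 2336 CPM and at 2076 against 5134 CPM. The part of depth and of stress in the result was not tested.

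**Figure D1:**
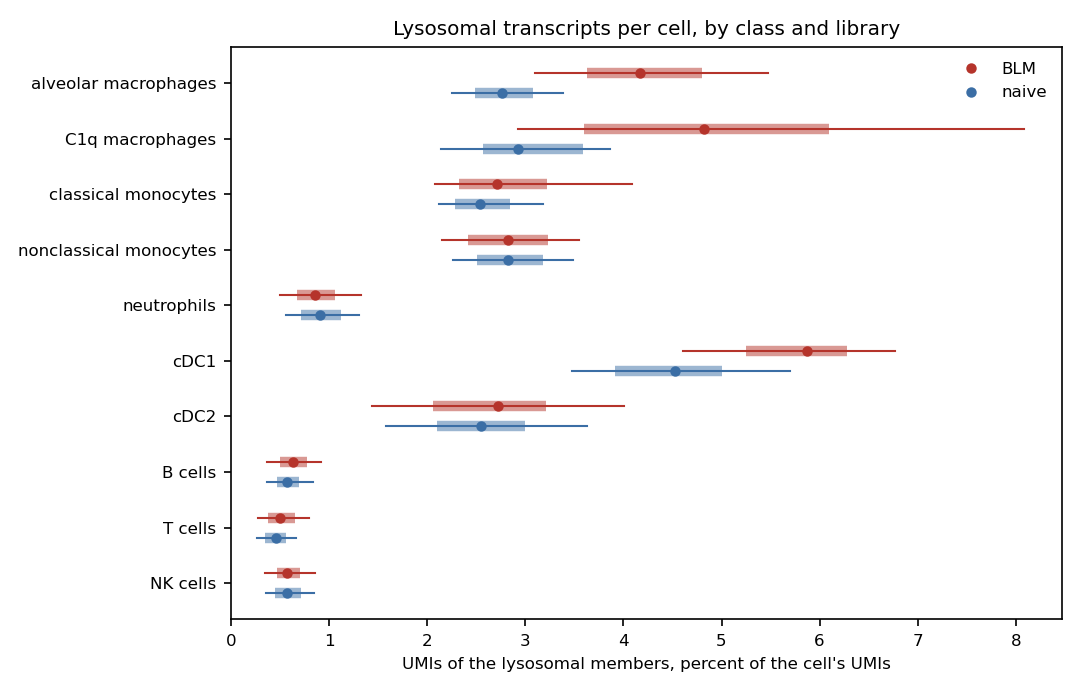
UMIs of the 37 lysosomal genes as percent of each cell's UMIs (horizontal axis) in the 10 compared classes, for BLM (red) and naive (blue). Points are medians over cells, thick bars the middle 50% and thin lines the 10th to 90th percentile. The medians differ most in alveolar macrophages (4.17% and 2.76%), C1q macrophages (4.82% and 2.93%) and cDC1 (5.87% and 4.53%).

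The difference was not shared evenly by the kinds of lysosomal gene. The 8 cysteine proteases together stood at 14260.3 CPM in BLM and 7959 CPM in naive alveolar macrophages (log2 ratio 0.84), and at 20885 and 9063 CPM in C1q macrophages (1.20). The 6 genes of lipid handling stood at 11998 and 6389 CPM in alveolar macrophages (0.91) and at 15105 and 5930.4 CPM in C1q macrophages (1.35). The 3 aspartic and serine proteases stood at 5020.0 and 3121 CPM in alveolar macrophages (0.69) and at 4896 and 1538 CPM in C1q macrophages (1.67). The 7 glycosidases, which cut sugars from glycoproteins and glycolipids, differed less, with 1804 and 1398 CPM (0.37) and 2184 and 1466 CPM (0.58). Grn, the precursor of the granulins, and Tfeb together stood at 1024 and 768 CPM (0.42) and at 1379.7 and 1040.5 CPM (0.41). By contrast the 6 membrane proteins stood at 5717 and 5891 CPM in alveolar macrophages (-0.04, interval -0.07 to -0.02). In C1q macrophages they stood at 5981 and 5032 CPM (0.25). The 4 proton pump genes stood at 1542 and 1499 CPM (0.04, interval -0.01 to 0.09) and at 1378 and 1247 CPM (0.14). Soluble proteases and Psap therefore made up most of the difference in the sum, and the sums of the membrane and pump genes differed less, with members on both sides of 0. In alveolar macrophages Atp6v1a was at 0.49 and Scarb2 at -0.34, and in C1q macrophages Lamp1 was at 0.59 and Atp6v1a at -0.22.

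**Figure D2:**
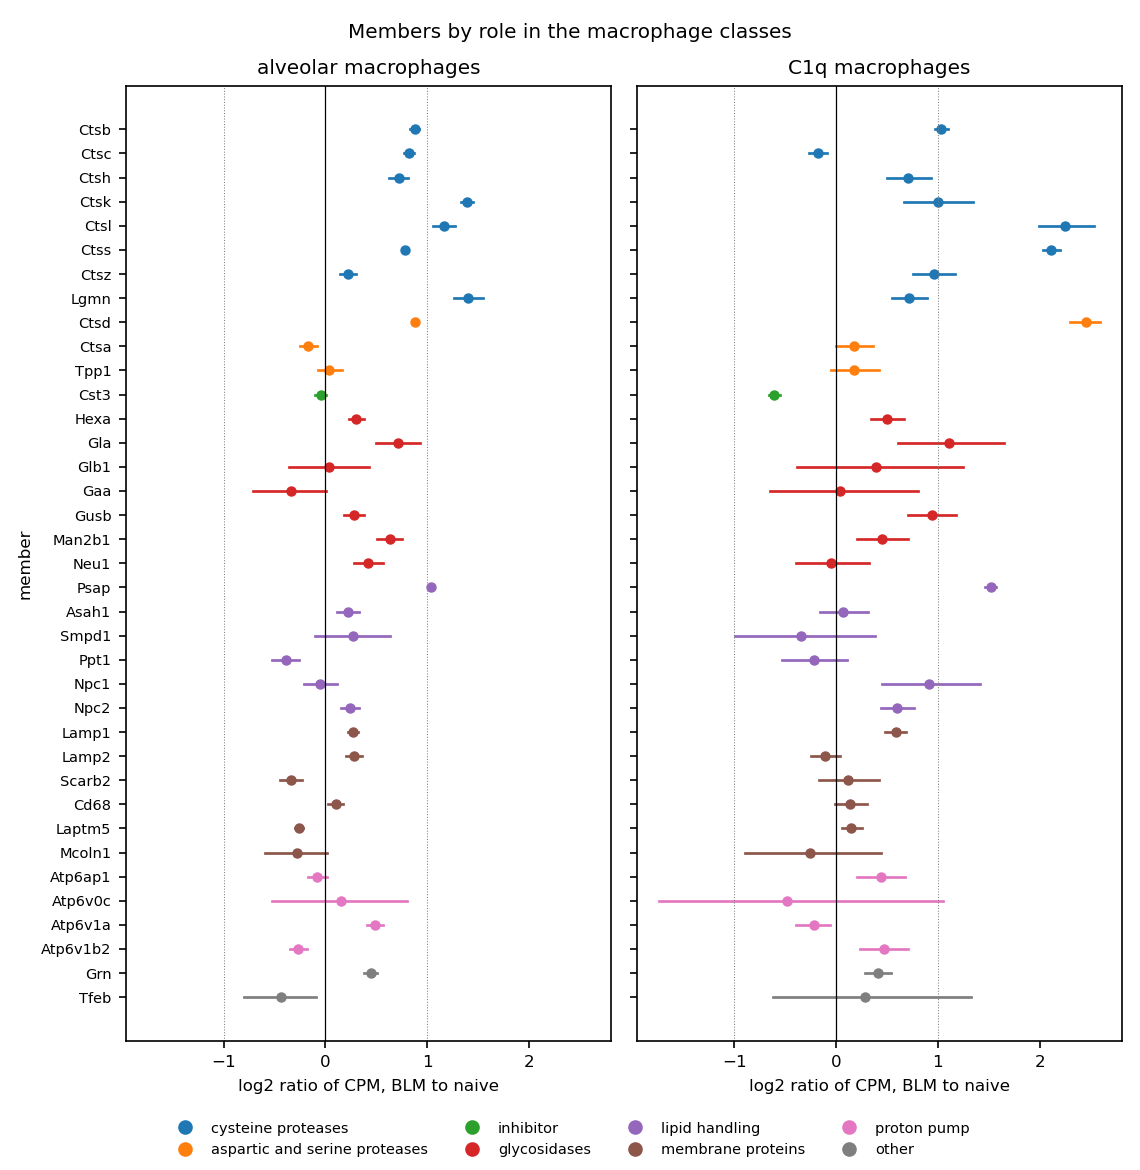
Log2 ratio of CPM, BLM to naive (horizontal axis, dotted lines at 2-fold), for each of the 37 genes in alveolar macrophages (left) and C1q macrophages (right), coloured by role. Lines are 95% intervals for counting error. Most proteases and Psap lie to the right of 0, up to 1.40 for Lgmn in the left panel and 2.45 for Ctsd in the right one, except Ctsa on the left (-0.17) and Ctsc on the right (-0.18). Membrane and pump genes lie on both sides, from -0.34 to 0.49 on the left and from -0.48 to 0.59 on the right.

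In alveolar macrophages, 4 of 37 members were 2-fold or more higher in BLM: Ctsk, Ctsl, Lgmn and Psap. Of all 10448 genes with 20 or more UMIs, 4.44% were that much higher. No member was 2-fold lower, against 10.2% of all genes. The median log2 ratio of the members was 0.27 against -0.20 for all genes. The interval lay above 0 for 22 members and below 0 for 6, against 13.8% and 32.2% of all genes. Whether an interval clears 0 depends on the number of UMIs, which was not matched between the members and all genes.

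Ctsk (chr3:95499256-95509362) encodes cathepsin K, a cysteine protease best known for cutting collagen in bone. It stood at 1437 CPM in BLM and 549 CPM in naive alveolar macrophages (log2 ratio 1.39, interval 1.33 to 1.45). A Ctsk UMI was seen in 89.9% and 83.4% of these cells, and in 49.3% and 33% after each cell was thinned to 1000 UMIs. Only 2.77% of BLM and 2.95% of naive B cells held one, far under the shares in alveolar macrophages. Lgmn, the asparaginyl endopeptidase that trims other lysosomal proteases, stood at 265 and 100.4 CPM (1.40). Ctsl, cathepsin L, stood at 449 and 200.1 CPM (1.16). Psap stood at 10769 and 5226 CPM (1.04), and Ctsd, the aspartic protease cathepsin D, at 4272 and 2324 CPM (0.88). Ctsd was seen in 99.5% of BLM and 99.3% of naive alveolar macrophages, and in 94.2% and 87% after thinning. Relative to the all-gene median, 7 members were 2-fold or more higher, against 6% of all genes.

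The members with intervals below 0 in alveolar macrophages all differed by less than 1.5-fold. Ppt1, the palmitoyl thioesterase, stood at 200.2 CPM in BLM and 262 CPM in naive (log2 ratio -0.39). Scarb2, the membrane receptor that carries glucocerebrosidase to the lysosome, stood at 283 and 357 CPM (-0.34). Laptm5, a membrane protein of blood cells, stood at 2552 and 3053 CPM (-0.26), Atp6v1b2 at 529.8 and 637 CPM (-0.27), and Tfeb at 28.6 and 38.8 CPM (-0.44). Ctsa, the protective protein of galactosidase and neuraminidase, stood at 471 and 528 CPM (-0.17). Since the median of all genes was itself at -0.20, these genes lay close to it: relative to that median Laptm5 and Atp6v1b2 were both at -0.06, Tfeb at -0.24, and Ctsa at 0.04, on the other side. Cst3, the secreted inhibitor cystatin C, stood at 1274 and 1314 CPM, -0.04 by itself and 0.16 relative to the median. Cd68 and Lamp1, both glycoproteins of the lysosomal membrane, stood at 765 and 714 CPM (0.10) and at 1482 and 1228 CPM (0.27).

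In C1q macrophages the largest ratios were larger than in alveolar macrophages. There were 6 of 37 members at 2-fold or more higher in BLM (Ctsb, Ctsl, Ctss, Ctsd, Gla and Psap), against 7.91% of all 9604 genes tested. None was 2-fold lower, against 12.8% of all genes. The median of the members was 0.41, and that of all genes -0.13. Relative to the latter, 10 members were 2-fold or more higher, against 9.81% of all genes. The interval lay above 0 for 20 members and below 0 for 3, against 10.6% and 19.3% of all genes, again without matching for UMI number.

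Ctsd (chr7:142375911-142388038, minus strand) had the widest difference, 3981 CPM in BLM against 730.0 CPM in naive C1q macrophages (log2 ratio 2.45, interval 2.30 to 2.59). Naive C1q macrophages were thus well under naive alveolar macrophages for Ctsd (2324 CPM), and BLM C1q macrophages came close to BLM alveolar macrophages (4272 CPM). Ctsl stood at 1021 and 214 CPM (2.25, interval 1.99 to 2.53). Ctss (chr3:95526786-95556403, next to Ctsk on the same strand), cathepsin S of antigen processing, stood at 8581 and 1981 CPM (2.11). Psap stood at 13552 and 4737 CPM (1.52), and Ctsb, cathepsin B, at 6943 and 3393 CPM (1.03). Gla, the alpha-galactosidase that carries a pair of core motifs upstream, stood at 135 and 62.8 CPM (1.11, interval 0.61 to 1.65) on 34 naive UMIs. Ctsk lay just under 2-fold with 292 and 146 CPM (interval of the log2 ratio 0.67 to 1.34). It was seen in 42.5% of BLM and 13.1% of naive C1q cells, or 11.3% and 2.99% after thinning.

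Only 3 members had intervals below 0 in C1q macrophages. Cst3 stood at 3361 CPM in BLM and 5114 CPM in naive (log2 ratio -0.61, interval -0.66 to -0.55). Ctsc, cathepsin C, which activates serine proteases of granules, stood at 1784 and 2019.9 CPM (-0.18), and Atp6v1a, the catalytic subunit of the pump, at 543 and 634 CPM (-0.22). Cystatin C inhibits cysteine cathepsins, and in this class it was lower in BLM while their sum was higher. Differences were small for Laptm5 (2074 and 1867 CPM, 0.15) and Cd68 (744 and 675 CPM, 0.14), and Tfeb was too rare to place (24.6 and 20.3 CPM, 0.28 with an interval from -0.62 to 1.32). Lamp1 stood at 2157 and 1436 CPM (0.59).

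The C1q class was not the same population in both libraries. The markers that defined it summed to 6518 CPM in BLM and 10992 CPM in naive, and Spp1, which encodes osteopontin and marks macrophages of scarring tissue, stood at 7035 and 31.4 CPM. Alveolar macrophage markers summed to 2283 CPM in BLM and 2659 CPM in naive C1q macrophages. Their part in the C1q levels was not tested, including those of Ctsk and Ctsd, which were highest in alveolar macrophages in both libraries. A different mix of cells within the class and a different level per cell cannot be told apart from the class sum. The BLM cells were therefore split at 1000 CPM of Spp1, which put 209 above and 217 below, with 67 of the 426 cells within 2-fold of that limit. None of the 84 naive cells lay above it.

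Lysosomal transcripts were higher on the Spp1 side. Their sum stood at 64684 CPM in BLM cells above the limit and 42398 CPM in those below (log2 ratio 0.61), while naive C1q macrophages had 30429.9 CPM. Cells above the limit were also deeper (median 12084 against 8294 UMIs), with dissociation stress genes at 1744 against 2521 CPM. The part of depth and of stress in this split was not tested. Ctsk differed most, with 444 and 87.3 CPM (2.35), and the cells below the limit lay under the naive 146 CPM (-0.74, interval -1.13 to -0.34). Ctsd stood at 5916 and 1384 CPM (2.10), and its level below the limit was still higher than the naive 730.0 CPM (0.92, interval 0.77 to 1.08). Ctsl stood at 1375 and 545 CPM (1.33) and Ctss at 10717 and 5714 CPM (0.91), both above their naive levels on either side. Psap stood at 16246 and 9937 CPM, with the lower value 1.07 on the log2 scale above naive. Cst3 stood at 3142 and 3657 CPM, under the naive 5114 CPM on both sides. Laptm5 stood at 2091 and 2052 CPM (0.03). The higher Ctsk of BLM C1q macrophages thus lay in cells with Spp1, whereas Ctss, Ctsl, Psap and Ctsd were higher than naive on both sides. Alveolar macrophage markers stood at 2465 CPM above the limit and 2038 CPM below it, and their part in these levels was not tested.

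**Figure D3:**
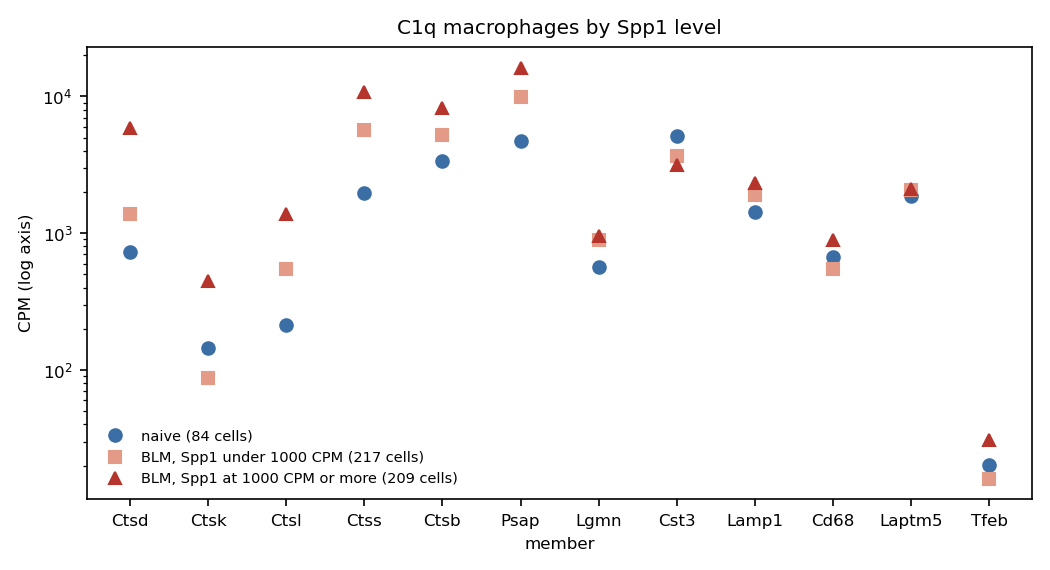
Levels of 12 members in C1q macrophages as CPM on a log axis: naive cells (blue circles), BLM cells with Spp1 under 1000 CPM (light squares) and BLM cells at 1000 CPM or more (red triangles). Ctsd, Ctsl, Ctss and Psap step up from naive to both BLM sets, Ctsk is high only in the set with Spp1 (444 CPM), and Cst3 steps down from 5114 to 3142 CPM.

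Alveolar macrophages gave another picture when split at the same limit, a split chosen after the values were seen. Spp1 reached 1000 CPM in 165 of the 218 BLM cells and in 36 of the 669 naive cells, and stood at 5947 and 249 CPM in the class. Here too, a different mix of cells and a different level per cell cannot be told apart from the class sum. The summed members stood at 42926 and 41807 CPM in BLM cells above and below the limit (log2 ratio 0.04), so the level did not follow Spp1 there. Ctsk was lower in the cells above the limit, 1146 against 2282 CPM (-0.99, interval -1.08 to -0.91), the reverse of its order in C1q macrophages. Ctsl was higher, 493 against 320.4 CPM (0.62). As a measure of its background, Spp1 stood at 86.8 CPM in BLM B cells and 96.4 CPM in BLM T cells. It was higher in BLM NK cells (519 CPM) and BLM neutrophils (621 CPM), within 2-fold of the limit. Of the 218 BLM alveolar macrophages, 62 lay within 2-fold of the limit.

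Classical monocytes, the Ly6c2-expressing cells that enter injured lung, had a sum of 32526 CPM in BLM and 25751 CPM in naive (log2 ratio 0.34, interval 0.31 to 0.36, 238 and 177 cells). Of 36 members tested, 7 were 2-fold or more higher (Ctsk, Ctsl, Ctss, Lgmn, Ctsd, Tpp1 and Smpd1), against 9.83% of all genes, and none was 2-fold lower, against 5.69%. Ctsd again differed most, with 1116 CPM in BLM and 119.7 CPM in naive (3.22, interval 2.92 to 3.54). Ctsk stood at 136 and 15.1 CPM (3.17), Ctsl at 271 and 80.7 CPM (1.75), Tpp1, a tripeptidyl peptidase, at 194 and 65.5 CPM (1.56), and Ctss at 4975 and 2364 CPM (1.07). The naive Ctsk level was near the 12.2 CPM of BLM B cells, so its ratio is uncertain. The members with intervals below 0 were Npc2, which binds cholesterol in the lysosome, with 763 and 1227 CPM (-0.69), and Cst3 with 2381 and 3100.2 CPM (-0.38). Psap stood at 9162 and 8183 CPM (0.16).

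Some cells gated as classical monocytes also held macrophage transcripts, and more of them were in the BLM library. Alveolar macrophage markers summed to 4932 CPM in BLM and 1590.4 CPM in naive classical monocytes, and Spp1 stood at 1376 and 5.04 CPM. When cells with 3 or more markers of either macrophage class were left out (50 of 238 BLM and 9 of 177 naive cells), the sum ratio was 0.23 (interval 0.20 to 0.26). The alveolar markers Chil3 and Fabp4 did not count towards the 3, although the marker sums include them. Then 5 of 36 members were 2-fold or more higher, against 7.41% of all genes. Ctsd stood at 822 and 115 CPM (2.84), Ctsk at 68.8 and 14.7 CPM (2.22), Ctsl at 221 and 79 CPM (1.48), and Ctss at 4082 and 2344 CPM (0.80). The Ctsd ratio was thus 2.84 without those cells and 3.22 with them.

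Nonclassical monocytes, the patrolling cells of the vessels, had sums of 27962 CPM in BLM and 28752 CPM in naive (log2 ratio -0.04, 165 and 241 cells). None of 34 members was 2-fold higher, against 3.18% of all genes. Smpd1, acid sphingomyelinase, was the only member 2-fold lower, on 3 and 20 UMIs (-1.34), with an interval from -3.73 to 0.41, against 5.37% of all genes. Ctsd stood at 258 and 140.2 CPM (0.88, interval 0.52 to 1.23), and Lamp2, needed for autophagy mediated by chaperones, at 614 and 427 CPM (0.52). Lgmn stood at 292 and 219 CPM (0.42), Ctsb at 3467 and 3051 CPM (0.18) and Ctsh at 226 and 169.6 CPM (0.41). Cd68 was lower, 335 against 504 CPM (-0.59), and so were Cst3, 5531 against 6809 CPM (-0.30), and Npc2, 335 against 463 CPM (-0.47). Neutrophil markers summed to 3749.5 CPM in these BLM cells and 1836 CPM in the naive ones, and their part in the result was not tested.

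**Figure D4:**
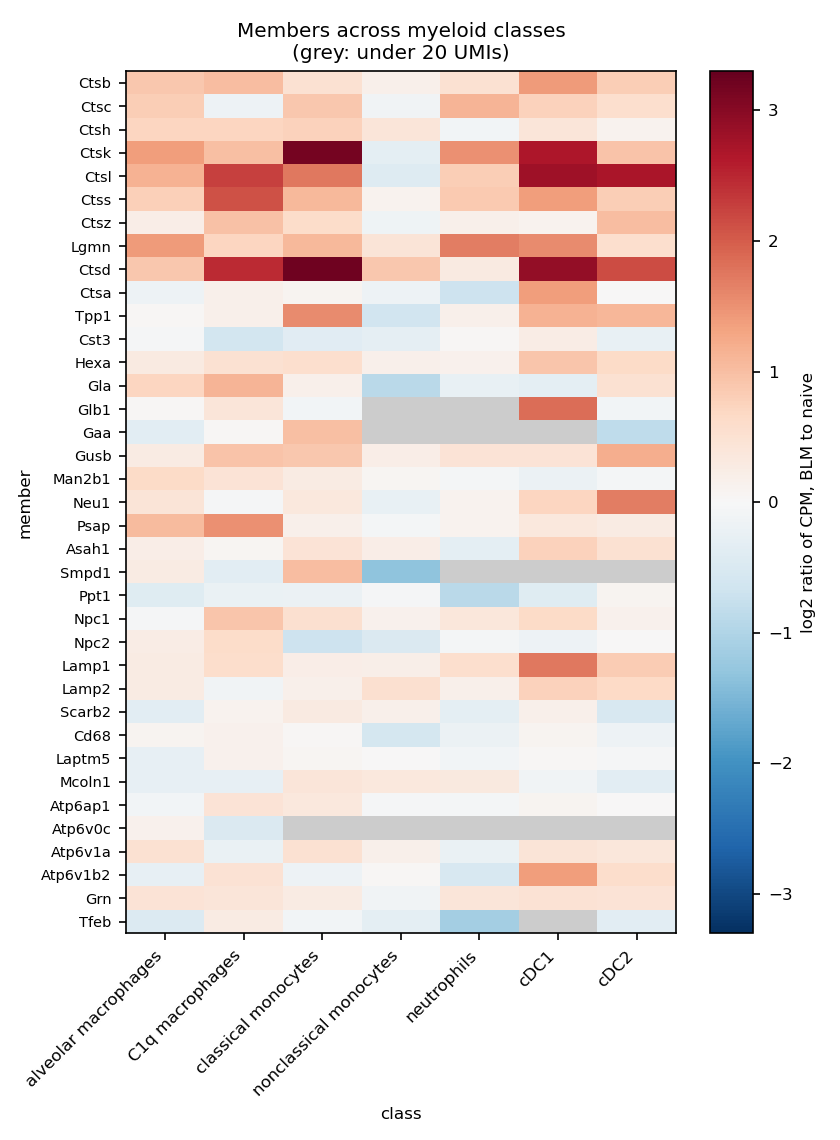
Log2 ratio of CPM, BLM to naive, for the 37 genes (rows, by role) in 7 myeloid classes (columns), red for higher and blue for lower in BLM, grey where both libraries together had under 20 UMIs. Ctsd, Ctsl and Ctsk are darkest, up to 3.22 for Ctsd in classical monocytes, and nonclassical monocytes are palest. Cells carrying macrophage markers are included.

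Neutrophils were poor in these transcripts, with a sum ratio of 0.07 (interval 0.03 to 0.11, 983 and 449 cells). Dissociation stress genes stood at 4944 CPM in BLM and 10737 CPM in naive neutrophils, and their part in the differences below was not tested. Of 33 members tested, 3 were 2-fold or more higher (Ctsc, Ctsk and Lgmn), against 4.59% of all genes, and Tfeb was 2-fold lower, against 5.78%. Tfeb stood at 34 CPM in BLM and 74 CPM in naive (-1.12, interval -1.72 to -0.53), and neutrophils were the class with the highest Tfeb in the naive library. Ppt1 stood at 145 and 268 CPM (-0.88), Ctsa at 109 and 176 CPM (-0.69), and Atp6v1b2 at 194 and 283 CPM (-0.54). Lgmn stood at 40.5 and 12.6 CPM (1.69), Ctsc at 130.1 and 60 CPM (1.12), Ctss at 441 and 241 CPM (0.87), Ctsl at 107 and 61.4 CPM (0.80) and Lamp1 at 318 and 215 CPM (0.56). The sum ratio changed sign, to -0.07 (interval -0.11 to -0.02), when the 5 BLM cells and 1 naive cell with 3 or more macrophage markers were left out. Without them Ctss stood at 287 and 241 CPM (0.25, interval -0.01 to 0.52), Ctsl at 82.9 and 61.6 CPM (0.43, interval -0.09 to 0.97) and Ctsc at 72.5 and 60.2 CPM (0.27, interval -0.26 to 0.82), so these differences were no longer beyond counting error. Of 32 members then tested, Lgmn alone was 2-fold higher (1.45), against 3.88% of all genes, and Tfeb alone was 2-fold lower (-1.11), against 6.43%.

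Dendritic cells held the largest shares of cells with macrophage markers, 29.8% of BLM cDC1 and 36% of BLM cDC2. For cDC1, which take up dead cells and present them to CD8 T cells, the sum ratio was 0.32 (interval 0.30 to 0.35, 57 and 90 cells), and 11 of 33 members were 2-fold or more higher, against 6.89% of all genes. None was lower by that much, against 8.95%. Ctsd stood at 551 and 73.5 CPM (2.90) and Ctsl at 73.5 and 10.5 CPM (2.81). Alveolar macrophage markers summed to 5491 CPM in these BLM cells and 603 CPM in the naive ones. Without the cells that held 3 or more macrophage markers (17 BLM, 8 naive), none of 28 members was 2-fold higher, against 4.97% of all genes, and Ctsd stood at 57 and 78.8 CPM (-0.47, interval -1.28 to 0.30).

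The sum in cDC1 still differed without those cells, 57474 against 45661 CPM (0.33, interval 0.31 to 0.36). It was carried by Cst3, at 37642 and 28438 CPM (0.40), and Psap, at 12341 and 9755 CPM (0.34). Cst3 had its highest level of all classes in cDC1 in both libraries, 33349 CPM in BLM and 28111 CPM in naive with all gated cells. Ppt1 also was highest in cDC1, with 797 and 1049 CPM (-0.40, interval -0.57 to -0.23). Cst3 thus stood higher in BLM cDC1 and lower in BLM C1q macrophages and both kinds of monocyte.

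For cDC2, which present antigen to CD4 T cells, the sum ratio was 0.20 (interval 0.18 to 0.23, 86 and 116 cells) with all gated cells. Then 6 of 35 members were 2-fold or more higher, against 5.93% of all genes, and none 2-fold lower, against 7.26%. Ctsd stood at 481 and 109 CPM (2.14) and Ctsl at 91.6 and 14.1 CPM (2.70). Cst3 stood at 8578 and 10105 CPM (-0.24) and Scarb2 at 73.2 and 106 CPM (-0.53). Without the cells that held 3 or more macrophage markers (31 BLM, 28 naive) the sum ratio was -0.01 (interval -0.05 to 0.02), and Ctsd alone of 32 members was 2-fold higher, against 5.61% of all genes, at 161 and 69 CPM (1.22, interval 0.63 to 1.83). With cells classed by Leiden clusters the sum ratio was -0.03 and that of Cst3 0.16, so neither direction held in cDC2.

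**Figure D5:**
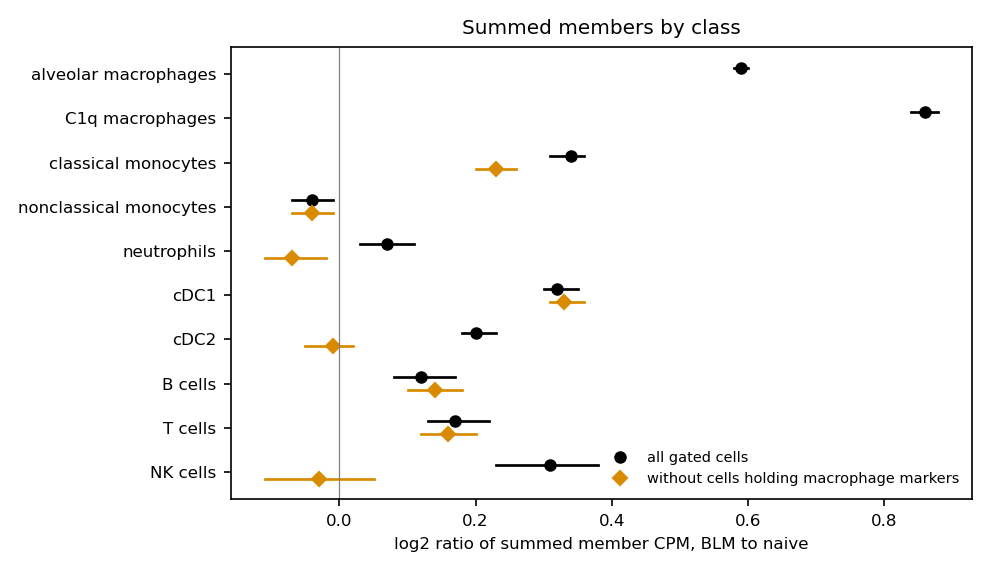
Log2 ratio of the summed CPM of the 37 genes, BLM to naive (horizontal axis), in 10 classes with 95% counting intervals. Black circles are all gated cells, and orange diamonds leave out cells of the other 8 classes with 3 or more macrophage markers. Macrophages stand at 0.59 and 0.86, cDC1 and classical monocytes stay above 0 without those cells (0.33 and 0.23), and neutrophils, cDC2 and NK cells do not (-0.07, -0.01 and -0.03).

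Lymphocytes had small differences in low sums. The sum ratio was 0.12 in B cells (6501 and 5966 CPM), 0.17 in T cells (5258 and 4663 CPM) and 0.31 in NK cells (7766 and 6278 CPM). In NK cells it was -0.03 (interval -0.11 to 0.05) once 2 BLM and 4 naive cells with macrophage markers were left out. Ranked on the interval bound closer to 0, Ctss (652 and 213 CPM, 1.62) and Ctsz (97.3 and 32.3 CPM, 1.59) led there with all gated cells, and Neu1, a sialidase, was lowest (22.7 and 58.5 CPM, -1.37). Without those cells Ctss stood at 264 and 201 CPM (0.39, interval -0.04 to 0.82) and Ctsz at 52.1 and 28.5 CPM (0.87, interval -0.22 to 1.94), so both intervals then included 0. In B cells Ctsz (174 and 116 CPM, 0.58) and Lgmn (96.5 and 62.5 CPM, 0.63) led, and Ctsa (64.9 and 106 CPM, -0.71) and Neu1 (64.1 and 98.8 CPM, -0.62) were lowest. By the same measure Ctsb (359 and 211 CPM, 0.76) and Ctsz (54.4 and 27.4 CPM, 0.99) led in T cells, with Tpp1 (45.5 and 77.9 CPM, -0.78) and Npc2 (248 and 319 CPM, -0.36) lowest.

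Across classes, most members were at their highest in macrophages, but the class that led was not the same in both libraries. In BLM, C1q macrophages led for 19 of the 37 members and alveolar macrophages for 12. In naive the counts were 14 and 15. Intervals of the leading class and the next did not overlap for 14 and 7 of these in BLM, and for 7 and 9 in naive. Leading classes were not counted over all genes, so the shift cannot be called particular to these members. Ctss was highest in alveolar macrophages in naive (3853 CPM) and in C1q macrophages in BLM (8581 CPM). Psap was highest in cDC1 in naive (9585 CPM) and in C1q macrophages in BLM (13552 CPM). Npc2 was highest in classical monocytes in naive (1227 CPM) and in C1q macrophages in BLM (913 CPM). Ctsk, Ctsd and Scarb2 were highest in alveolar macrophages in both libraries, and Cd68 did not differ there from C1q macrophages beyond the intervals. Gla was highest in neutrophils in both (201 CPM in BLM, 237 CPM in naive), although its ratio was above 2-fold in C1q macrophages. Laptm5 was spread over all leukocytes and lay between 1117 and 3053 CPM in all 10 classes of both libraries.

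A longer list of 66 other lysosomal genes was measured for comparison. In alveolar macrophages 63 were tested, 5 were 2-fold or more higher and 2 lower, against 4.44% and 10.2% of all genes, and the median log2 ratio was 0.07. Cd63, a tetraspanin of late endosomes, stood at 967 CPM in BLM and 156 CPM in naive (2.63), Acp5, the tartrate-resistant acid phosphatase, at 303 and 76.9 CPM (1.98), and Igf2r, a receptor that sorts hydrolases to the lysosome, at 16.5 and 1.45 CPM (3.51). Mcoln3, a lysosomal ion channel, stood at 70.6 and 167 CPM (-1.25), Cd164 at 834 and 1416 CPM (-0.76), and Pla2g15, a lysosomal phospholipase, at 109 and 180.3 CPM (-0.72). In C1q macrophages 64 were tested, 10 were higher and 2 lower, against 7.91% and 12.8% of all genes, and the median was 0.33. Gpnmb, a transmembrane glycoprotein of macrophages and melanosomes, stood at 1324 and 166 CPM (2.99), Acp5 at 206 and 24 CPM (3.10) and Igf2r at 55.1 and 11.1 CPM (2.31). Ctsf, cathepsin F, stood at 24.6 and 83.2 CPM (-1.76), Cd164 at 238 and 473 CPM (-0.99) and Flcn at 59.1 and 116 CPM (-0.98). Of this list, Cd63, Acp5 and Igf2r were 2-fold higher in both macrophage classes, comparisons that share their 2 libraries.

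Cstb, the intracellular inhibitor cystatin B, was higher in BLM. It stood at 925 CPM in BLM and 599 CPM in naive alveolar macrophages (0.63), at 995 and 560.0 CPM in C1q macrophages (0.83), and at 569 and 205 CPM in classical monocytes (1.47). In neutrophils the stefin Stfa2l1 stood at 446 and 230.3 CPM (0.95). In C1q macrophages and classical monocytes the secreted inhibitor was thus lower and the intracellular one higher in BLM, with all gated cells. The classical monocytes here include cells with macrophage markers, and Cstb was not measured without them.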

How the data were processed

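Per the file headers, the deposited UMI counts were made by the authors with the BD WTA Rhapsody Analysis Pipeline version 1.8 (build GRCm38, GENCODE M19, UMI error correction) and were not normalised. The 2 libraries have different pipeline run dates. Genes that 1 table did not list counted as 0 in it. Cells were kept from 200 genes upward and up to 15% mitochondrial UMIs, and scored for the markers of each class (mean z value of log counts per 10000). A cell joined the best-scoring class if 3 or more of its markers were detected and the runner-up lay at least 0.2 lower. Doublets were kept, and leaving out the 3% highest Scrublet scores was an alternative. Log2 ratios of CPM have exact conditional (Clopper-Pearson) 95% intervals, and genes with 20 or more UMIs over both libraries entered the counts past 2-fold, which is a rule of size and no test. The ratio and its interval were run on simulated Poisson counts, the same model that the interval assumes. These had no variation between cells or mice, so the run cannot show how the interval holds under such variation. Named genes were, in macrophages, monocytes and neutrophils, the 5 members at either extreme, ranked on whichever interval bound lay closer to 0, in other classes 2 at either extreme, plus 10 fixed members. The members, markers and lists were chosen with earlier results of these data known. The split of alveolar macrophages by Spp1 and the removal of cells with macrophage markers were chosen after seeing the data. That removal did not count the alveolar markers Chil3 and Fabp4, so cells holding their RNA can remain. Python 3.11.15, scipy 1.17.1 and scanpy 1.11.5 were used. Coordinates come from GENCODE M21 (GRCm38) and promoters from RefSeq (GRCm38.p6).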

Additional observations from a re-analysis of the deposited data

Results flagged for a closer look

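The ratio of BLM to naive lay on opposite sides of 0 in the 2 macrophage classes for 4 members, with both intervals clear of 0. The share of all genes that did so was not counted, so 4 members cannot be called many or few. The difference between the classes was not tested, since each group is 1 library. Ctsc had a log2 ratio of 0.82 in alveolar and -0.18 in C1q macrophages. Atp6v1a had 0.49 in alveolar and -0.22 in C1q macrophages. Atp6v1b2, another subunit of the same pump, had the reverse order, with -0.27 in alveolar and 0.47 in C1q macrophages. Laptm5 had -0.26 in alveolar and 0.15 in C1q macrophages.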

How the results depend on the processing

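No paired analysis was possible because each group was 1 library. Of 822 values recomputed under alternatives, 625 were classed as the same, 175 as moved and 22 as reversed. Not all were classed by their counting interval. Counts of members have no such interval and were classed by the size of the change. Sums without the most abundant members were classed as moved whatever their size. A sign change was classed as reversed only where the main interval excluded 0, so other sign changes are among the same or moved. The summed log2 ratio stayed above 0 in both macrophage classes, classical monocytes and cDC1 under every alternative run, and it changed sign in neutrophils, cDC2, nonclassical monocytes and NK cells under some. The causes were not tested.

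With stricter cell limits (500 genes, 10% mitochondrial UMIs) the sum ratio was 0.58 in alveolar macrophages, 0.31 in classical monocytes and 0.18 in cDC2. Without mitochondrial and ribosomal protein genes it was 0.57 in alveolar macrophages. Without the 3% highest Scrublet scores it was 0.89 in C1q macrophages, -0.01 in nonclassical monocytes and -0.06 in neutrophils, where Psap was at -0.07 and 1 member was 2-fold higher. With Leiden clusters it was 0.63 in alveolar and 0.80 in C1q macrophages, 0.20 in classical monocytes (3 members 2-fold higher), -0.04 in neutrophils (Psap -0.04), 0.37 in cDC1 (4 members) and -0.03 in cDC2 (3 members, Cst3 0.16, Lamp1 -0.10, Psap -0.51). With 1 more marker asked for it was 0.30 in cDC1 and 0.11 in cDC2 (3 members, Cst3 0.22, Psap -0.21). For the Scrublet, Leiden and extra-marker alternatives the share of all genes past 2-fold was not counted. Their member counts therefore have no background to be set against. Relative to the median of all genes it was 0.79 in alveolar macrophages (7 members), 0.98 in C1q macrophages (10 members), 0.31 in classical monocytes, -0.01 in nonclassical monocytes, 0.13 in neutrophils and 0.29 in cDC1. As a mean of per-cell shares it was 0.76 in C1q macrophages, 0.18 in classical monocytes, -0.05 in neutrophils (Psap -0.09), 0.35 in cDC1 and 0.08 in cDC2. Without the 5 most abundant members it was 0.48 in alveolar and 0.63 in C1q macrophages, 0.46 in classical monocytes, 0.04 in nonclassical monocytes, 0.01 in neutrophils, 0.46 in cDC1 and 0.52 in cDC2.

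Without cells holding 3 or more macrophage markers, an alternative chosen after seeing the data, it was 0.23 in classical monocytes, -0.07 in neutrophils (1 member 2-fold higher, Psap -0.08), -0.01 in cDC2 (1 member, member median -0.04, Psap -0.13) and -0.03 in NK cells. In cDC1 it left 0 members 2-fold higher, a member median of -0.10, Ctsd at -0.47 and Lamp1 at -0.24. Depth limited the rare members: Atp6v0c had 271 UMIs in all.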

Other observations

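Cells without a class were many and differed between the libraries. The 823 unassigned BLM cells had 36277 CPM of the 37 genes and the 404 naive ones 13649 CPM. Alveolar macrophage markers stood at 6059 and 1583 CPM in them and Spp1 at 3188 and 19.1 CPM, and these cells entered none of the comparisons. Migratory dendritic cells stood at 31413 CPM (78 cells, BLM) and 32268 CPM (16 cells, naive). The 9 BLM plasma cells had 15718 CPM with 6725 CPM of alveolar macrophage markers, and the 25 naive ones 5071 CPM with 508 CPM. T cells with a Foxp3 UMI, which mark regulatory T cells, stood at 5614 CPM (80 cells, BLM) and 4518 CPM (25 cells, naive).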
